A study of Mus musculus with 4 samples.

Results

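Open chromatin around Bmp4 and Bmp7 was mapped by ATAC-seq, in which a transposase inserts sequencing adapters into accessible DNA, in mouse forelimb buds of 2 stages. A region counted toward a gene when the protein-coding transcription start nearest to its centre belonged to that gene, or when its centre lay within 2.5 kb of one of the gene's starts (GENCODE vM1, mm9). This gave 35 regions of 89378 in both lists together. At E9.5 they were 18 of 42613 regions, of which 4 belonged to Bmp4 and 14 to Bmp7. At E10.5 they were 17 of 46765 regions, of which 5 belonged to Bmp4 and 12 to Bmp7. The distance clause alone added 0 regions.

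All embryos were wild type and of the NMRI strain, and each stage had 2 biological replicates, each made from the forelimb pair of a single embryo. The earlier group is titled E9.5 and its protocol gives E9.75, and its samples kept the adjoining trunk. The E10.5 samples were forelimb buds by their source label and protocol, while their tissue label also names hindlimb buds. Stage and attached trunk tissue therefore cannot be told apart in any comparison below. The replicates of a stage had been combined into 1 list of regions, so that no value has a replicate error, no test between the stages was possible and the sequencing depth behind each region is unknown.

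Bmp4 and Bmp7 encode bone morphogenetic proteins, secreted ligands that bind type I and type II serine/threonine kinase receptors and lead to phosphorylation of SMAD1, SMAD5 and SMAD9, which enter the nucleus with SMAD4. In the early limb bud, BMP4 signalling is required to form the apical ectodermal ridge, and BMP ligands from ridge and mesenchyme induce the antagonist Grem1 in the mesenchyme. Later in limb development BMP signalling takes part in chondrogenesis, digit patterning and interdigital cell death. Expression of such genes is controlled by enhancers, which in ATAC-seq can appear as accessible regions away from the start. Accessibility alone does not show that a region is an active enhancer, nor which gene it serves.

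Sequences of selected shared and stage-specific regions of the 2 loci are shown first. Each sequence is the 200 bp at the centre of a region, read from the plus strand of NCBIM37, the assembly of mm9. Both genes lie on the minus strand. Capitals mark matches, on either strand, to any of 15 short motifs, which are spelled out further on. The Bmp4 set holds the upstream region present at both stages and the only stage-specific region of each list.
Bmp4, 46.1 kb upstream, both stages (chr14:47056325-47056524): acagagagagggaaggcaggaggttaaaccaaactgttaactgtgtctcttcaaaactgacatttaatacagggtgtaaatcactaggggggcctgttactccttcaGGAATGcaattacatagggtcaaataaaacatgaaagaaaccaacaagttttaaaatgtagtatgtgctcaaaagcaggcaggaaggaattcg
Bmp4, 156 kb upstream, E9.5 only (chr14:47165925-47166124): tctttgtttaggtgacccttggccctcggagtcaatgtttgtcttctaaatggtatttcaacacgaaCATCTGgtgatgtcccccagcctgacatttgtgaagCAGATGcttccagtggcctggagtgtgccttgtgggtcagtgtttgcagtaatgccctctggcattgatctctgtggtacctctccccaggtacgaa
Bmp4, 177 kb upstream, E10.5 only (chr14:47186856-47187055): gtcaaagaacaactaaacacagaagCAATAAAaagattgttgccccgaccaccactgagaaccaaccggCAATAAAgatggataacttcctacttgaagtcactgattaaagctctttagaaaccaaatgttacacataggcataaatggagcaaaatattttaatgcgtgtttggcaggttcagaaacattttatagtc

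The Bmp7 set holds the intronic region with the largest rise in score percentile, a stage-specific region of each list, and the shared region with the largest fall. No match to the 15 motifs lies in the last of them, which runs at its upper end past the narrower E10.5 region, chr2:172652888-172653629. None of the 200-bp stretches overlaps an exon of the gene it is assigned to.
Bmp7, 14.9 kb downstream, both stages (chr2:172750620-172750819): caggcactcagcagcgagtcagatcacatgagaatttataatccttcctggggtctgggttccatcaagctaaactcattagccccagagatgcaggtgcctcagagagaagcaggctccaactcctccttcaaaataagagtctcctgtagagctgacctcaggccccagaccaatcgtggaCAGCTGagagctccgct
Bmp7, 18.6 kb upstream, E9.5 only (chr2:172784348-172784547): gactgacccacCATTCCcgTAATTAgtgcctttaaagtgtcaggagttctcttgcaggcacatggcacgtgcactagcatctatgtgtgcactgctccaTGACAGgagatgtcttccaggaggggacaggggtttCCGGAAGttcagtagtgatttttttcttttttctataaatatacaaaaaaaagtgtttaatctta
Bmp7, 72.5 kb downstream, E10.5 only (chr2:172692953-172693152): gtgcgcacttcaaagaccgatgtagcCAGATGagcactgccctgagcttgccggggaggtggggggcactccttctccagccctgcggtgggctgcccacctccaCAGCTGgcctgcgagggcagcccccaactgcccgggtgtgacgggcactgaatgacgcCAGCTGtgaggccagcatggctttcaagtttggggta
Bmp7, 112 kb downstream, centre of the E9.5 region (chr2:172653462-172653661): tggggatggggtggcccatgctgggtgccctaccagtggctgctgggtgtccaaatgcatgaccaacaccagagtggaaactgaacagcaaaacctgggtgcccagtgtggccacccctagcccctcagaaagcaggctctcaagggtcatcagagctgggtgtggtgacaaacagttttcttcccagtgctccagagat

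The score of a region rests on the most significant of the replicate regions merged into it, and equals 10 times the negative log10 of that MACS p-value. A score of 60 corresponds to the weak p-value of 1e-06 and 100 to the stringent p-value of 1e-10, and scores grow with sequencing depth. Scores were therefore read as percentiles within their own list. Bmp7 scores ran from 68.81 to 1370.46 at E9.5 and from 64.5 to 1209.7 at E10.5. Bmp4 scores ran from 163.53 to 1088.18 at E9.5 and from 186.97 to 667.56 at E10.5. The median percentile of the members was 42.36 and 43.73 for Bmp4 and 43.64 and 48.91 for Bmp7 at E9.5 and E10.5, respectively. These values lay a little under the middle of each list. Most members were over 2.5 kb from any protein-coding start, however, and the median percentiles of all such regions were lower, 35.88 and 38.99.

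**Figure D1:**
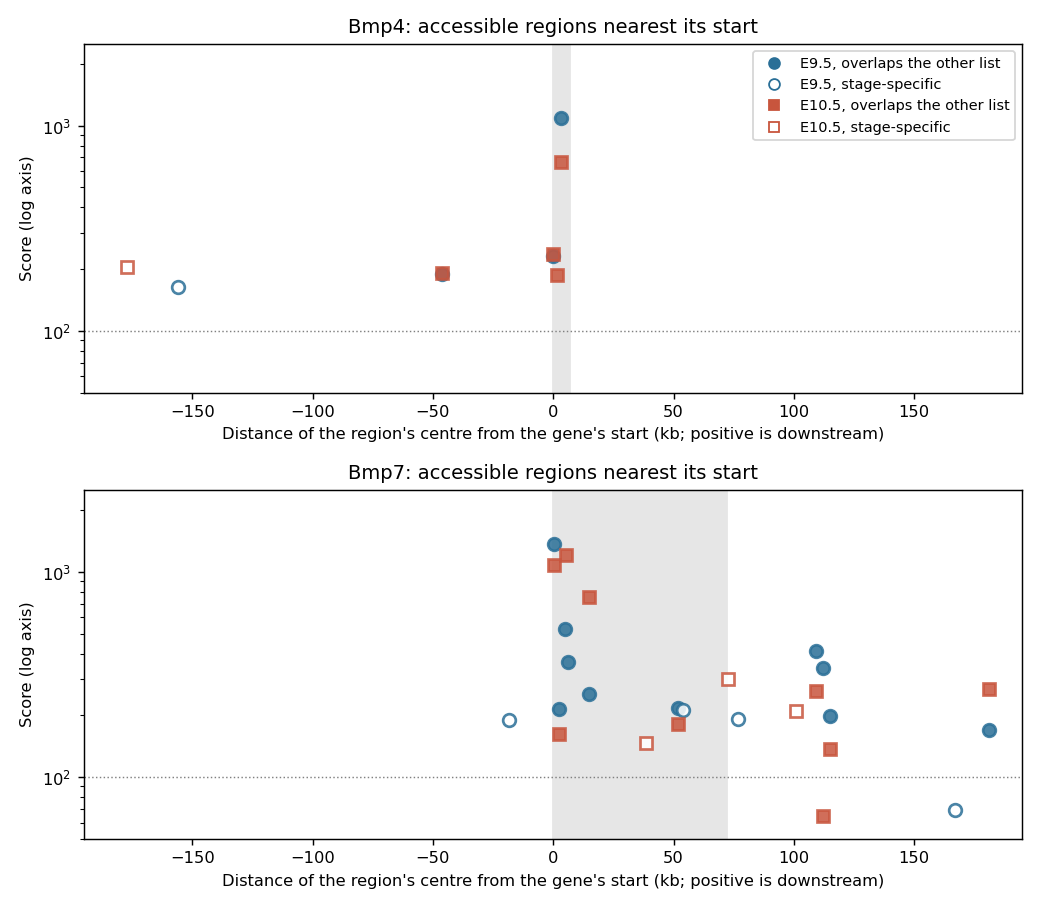
Score (log axis) of each region nearest Bmp4 (top) or Bmp7 (bottom) against the distance of its centre from the gene's start in kb, for E9.5 (circles) and E10.5 (squares). Filled symbols overlap the other list, open symbols are stage-specific, the grey band is the gene and the dotted line is the score of 100. The 9 open symbols of both genes lie away from the starts, as do most stage-specific regions of the whole lists. The highest scores lie at the start of Bmp7 and within the gene bodies.

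By an overlap of 1 bp, 3 of 4 and 4 of 5 Bmp4 regions and 10 of 14 and 9 of 12 Bmp7 regions had a counterpart at the other stage, shares near those of the whole lists. Regions with 1 bp or more in common with the other stage's list are called shared here, and all others stage-specific. At Bmp4 the stage-specific regions were 1 of 4 in the E9.5 list (25%, 95% Wilson interval 4.56 to 69.9) and 1 of 5 in the E10.5 list (20%, 3.62 to 62.4). At Bmp7 they were 4 of 14 in the earlier list (28.6%, 11.7 to 54.6) and 3 of 12 in the later one (25%, 8.89 to 53.2). Over the whole lists the stage-specific share was 29.9% for the earlier stage and 35.0% for the later. Among regions over 2.5 kb from any protein-coding start, called distal here, these shares were 40.3% and 49.6%. Distal regions can cover the start of a non-coding transcript, as some Bmp4 regions do. All stage-specific regions of both genes were distal, as were 10584 of 12730 E9.5-specific and 15573 of 16390 E10.5-specific regions of the whole lists. The distal shares of the 2 genes were 1 of 3 and 1 of 3 at Bmp4 and 4 of 12 and 3 of 10 at Bmp7. The background lies within every one of these intervals over all regions, which cover counting error only and are wide at such counts. With a reciprocal overlap of 50% in place of 1 bp, the stage-specific regions were 2 of 4 and 3 of 5 at Bmp4 and 7 of 14 and 5 of 12 at Bmp7.

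In base pairs, the regions of Bmp4 added up to 7014 bp in the E9.5 list and 6190 bp in the E10.5 list, and 4787 bp lay in both, which is 56.9% of the sequence covered at either stage. Those of Bmp7 added up to 18018 bp and 15900 bp, with 11588 bp in both (51.9%).

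By the nearest protein-coding start, Bmp7 was among the genes with most regions in these lists. Its 14 regions at E9.5 were matched or exceeded by 0.917% of 22238 protein-coding gene symbols (Bmp7 included), and its 12 regions at E10.5 by 2.49%. For the 4 and 5 regions of Bmp4 the corresponding shares were 15.2% and 12.4%, against a median of 1 region per gene in both lists. With starts of all gene types, the Bmp7 counts fell to 6 and 4 regions. The nearest-start rule gave the genes stretches of similar length, 189.8 kb for Bmp4 and 212.9 kb for Bmp7. Within them Bmp7 had 6.58 and 5.64 regions per 100 kb at E9.5 and E10.5, and Bmp4 had 2.11 and 2.63. The genome-wide densities were 1.61 and 1.76 regions per 100 kb. The density at Bmp4 depends on its stretch, which the start of the neighbouring gene Gm15217 cuts short on the 3' side. Over the wider 1102 kb between the flanking genes Ddhd1 and Cdkn3 there were 17 and 26 regions.

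Bmp4 (ENSMUSG00000021835.8) spans chr14:47003195-47010344 on the minus strand in 4 exons. Its start lay in an accessible region at both stages, at chr14:47009765-47010807 with a score of 231.08 at E9.5 and at chr14:47009723-47010889 with a score of 238.01 at E10.5. The percentiles of this start region, 46.1 and 49.5, lay below the median percentiles of all promoter-proximal regions, 77.82 and 77.06. It overlapped exon 1 and 0 coding bases.

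The highest-scoring Bmp4 region of both lists was not the start but the gene body. At E9.5 a single region of 4036 bp, chr14:47004904-47008939, had a score of 1088.18 (percentile 81.55). It overlapped exons 2 and 3 and 373 coding bases. At E10.5 the same stretch was divided among 3 regions. The region chr14:47006115-47008041 had a score of 667.56 (percentile 78.05) and overlapped exon 2. The region chr14:47008063-47009001, in intron 1 and within 2.5 kb of a start, had a score of 186.97. The third, chr14:47004644-47006059 with a score of 254.13, overlapped Bmp4 but lay nearest the start of Gm15217, an annotated protein-coding gene on the opposite strand, and was not counted for Bmp4. The gene-body stretch thus remained accessible, at a percentile lower by 3.501 points, and the rise from 4 to 5 Bmp4 regions came with its division. The antisense non-coding transcript Gm15222 lies within it and has its annotated start there. ATAC-seq does not separate strands, so accessibility of the 2 genes cannot be told apart at this place.

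Upstream, Bmp4 had 1 region in both lists, 46.1 kb from the start. It lay at chr14:47055889-47056969 with a score of 188.91 at E9.5 and at chr14:47055955-47056894 with a score of 191.93 at E10.5. This region covers the annotated start of Gm15221, a non-coding transcript, and its GC content was 43.9% and 44.2%, under the medians of 50.83% and 47.18% for distal regions. The only E9.5-specific Bmp4 region lay 156 kb upstream (chr14:47165598-47166451, score 163.53, percentile 32.26), and the nearest E10.5 region was 19.9 kb away. The only E10.5-specific one lay 177 kb upstream within the non-coding gene E130120K24Rik (chr14:47186347-47187563, score 205.21, percentile 43.73), and the nearest E9.5 region was 7.51 kb away. Both stage-specific scores exceeded the stringent limit of 100 and stood in the lower-scoring 50% of their lists. The median percentiles of all distal stage-specific regions were lower than theirs, 26.35 at E9.5 and 30.95 at E10.5.

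Bmp7 (ENSMUSG00000008999.7) spans 72.3 kb at chr2:172693513-172765822 on the minus strand in 7 exons. Its start region had the highest Bmp7 score at E9.5, 1370.46 (chr2:172763923-172766612, percentile 86.17), and 1083.61 at E10.5 (chr2:172763936-172766625, percentile 87.52). Both were 2690 bp wide and overlapped exon 1 with 415 coding bases. Unlike Bmp4, Bmp7 thus had its start at a percentile above the median of promoter-proximal regions in both lists. A smaller promoter-proximal region followed in intron 1, with a score of 213.65 at E9.5 (chr2:172762544-172763921) and 162.77 at E10.5 (chr2:172762699-172763639).

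Further into intron 1 the Bmp7 scores stood higher at E10.5. About 5 kb from the start, E9.5 had 2 regions, chr2:172760222-172761530 with a score of 528.66 and chr2:172758887-172760138 with a score of 363.37. E10.5 had a single region of 3506 bp across both, chr2:172758731-172762236, with a score of 1209.7, the highest Bmp7 score at that stage. The percentile of this element went from 67.42 in the earlier list to 89.43 in the later. The region 14.9 kb from the start scored 253.96 at E9.5 (chr2:172750221-172751217, percentile 49.15) and 752.13 at E10.5 (chr2:172750143-172751295, percentile 80.6).

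Downstream of Bmp7, 3 shared regions between 109 and 115 kb from the start scored lower at E10.5. At 109 kb the earlier score was 410.26 (chr2:172656244-172657936, percentile 62.02) and the later one 262.32 (percentile 53.01). At 112 kb it was 341.17 at E9.5 (chr2:172652739-172654383, percentile 57.56) and 64.5 at E10.5 (chr2:172652888-172653629, percentile 0.1636), close to the lowest score of the E10.5 list, 60.44. At 115 kb it was 198.15 and 137.16 (percentiles 40.56 and 25.16). The region at 181 kb went the other way, from 169.18 to 269.69 (percentiles 33.73 and 53.94). The one in intron 3, 51.7 kb from the start at E9.5, scored 216.61 and 180.9 (percentiles 43.88 and 38.45).

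To compare stages, overlapping regions of the 2 lists were joined into elements, and the highest percentile at E9.5 was subtracted from that at E10.5. Of the 12 shared elements of the 2 genes, 6 stood higher and 6 lower at E10.5. Across all 29676 shared elements of the genome the median difference was -0.00351 percentage points with an SD of 21.05, and the 5th and 95th percentiles were -34.82 and 38.4. All 3 Bmp4 elements lay within the middle 50% of this distribution, with differences of 2.376, 3.4 and -3.501. Of the 9 Bmp7 elements, 4 lay within it. The 2 elements further into intron 1, at 5.11 and 14.9 kb, differed by 22 and 31.45 points. Sizes like these were reached in either direction by 24.2% and 13.9% of all shared elements. The intron 1 element nearer the start, at 2.36 kb, went the other way, by -9.703 points (49.4%). The element at 112 kb was the only 1 of the 12 beyond the 5th or 95th percentile, with a difference of -57.4 points, a size reached by 2.06% of all shared elements. The elements beside it, at 109 and 115 kb, differed by -9.006 and -15.4 points, sizes reached by 51.6% and 35.2%. Whether any of these differences exceeds the spread between embryos was not tested, because each stage has 1 list.

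**Figure D2:**
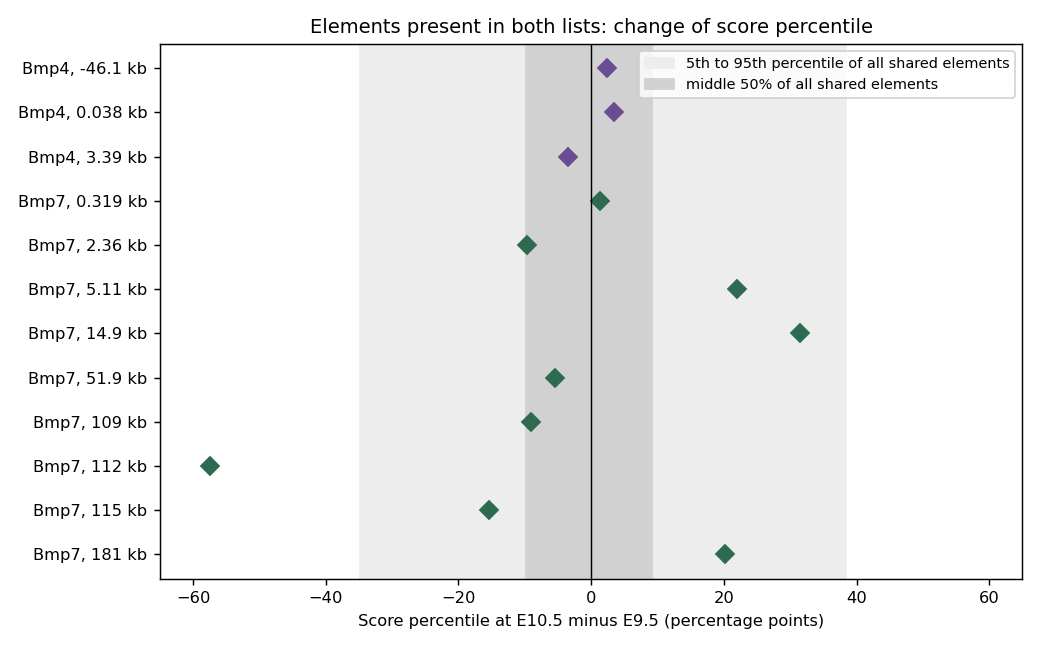
Difference in score percentile, E10.5 minus E9.5 in percentage points, for the 12 elements of Bmp4 (purple) and Bmp7 (green) present in both lists, named by their distance from the gene's start. The bands are the middle 50% (dark grey) and the 5th to 95th percentile (light grey) of all 29676 shared elements. The Bmp4 elements lie near 0, and the Bmp7 element at 112 kb lies outside both bands at -57.4.

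The E9.5-specific Bmp7 regions were spread over the locus. One lay 18.6 kb upstream (chr2:172783832-172785063, score 190.71), 1 in intron 3, 53.9 kb from the start (chr2:172711100-172712338, score 212.53), and 2 downstream of the gene at 76.8 kb (chr2:172688312-172689270, score 191.23) and 167 kb (chr2:172598526-172599256, score 68.81). The intron 3 region lay 0.642 kb from an E10.5 region, whereas the upstream one lay 17.2 kb from any. The upstream one spans chr2:172784511, the midpoint between the starts of Bmp7 and its neighbour Spo11. Its assignment to Bmp7 was therefore close to a tie. The one at 167 kb was the weakest E9.5 member (percentile 0.4776) and passed only the weak p-value in the best replicate region.

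The E10.5-specific Bmp7 regions lay in intron 2, 38.6 kb from the start (chr2:172726575-172727349, score 146.74), at the 3' end (chr2:172692425-172693679, score 301.98) and 101 kb from the start (chr2:172664547-172665359, score 210.65). The region at the 3' end was centred beyond the gene and overlapped exon 7 with 0 coding bases. Its percentile of 57.65 was the highest of the 9 stage-specific regions of both genes, and the only one above the middle of its list. The 2 regions nearest the 3' end, this one and the E9.5-specific one at 76.8 kb, were 3.15 kb apart. No region upstream of Bmp7 was assigned to it at E10.5, and the 1 upstream region at E9.5 is the stage-specific one.

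GC content was taken from the centre of each region and 150 bp on either side. At Bmp7, 9 of 12 distal E9.5 regions and 10 of 10 distal E10.5 regions lay above the median of all distal regions of their list, 50.83% and 47.18%. The Bmp7 medians were 57.5% and 56.6%. The 3 E10.5-specific Bmp7 regions had GC contents of 54.8% to 59.8%, while the median of all distal E10.5-specific regions was 44.19%. The E10.5-specific Bmp4 region, at 36.2%, stood on the other side of that median. Members of a locus share their surroundings, so these values describe 1 stretch of chromosome 2 and 1 of chromosome 14.

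**Figure D3:**
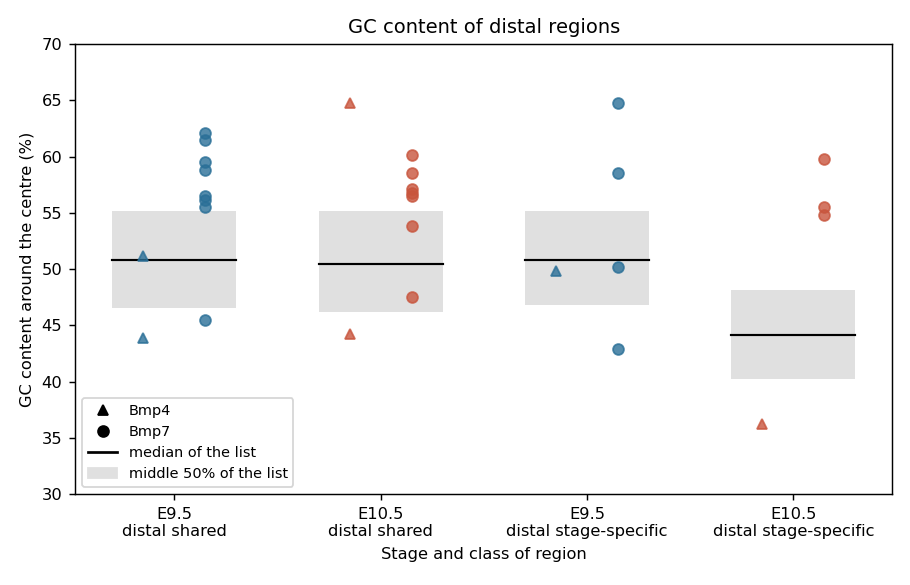
GC content in percent at the centre of each distal region and 150 bp on either side, for Bmp4 (triangles) and Bmp7 (circles) by stage and class. Grey boxes hold the middle 50% of all distal regions of that list and class, and black lines are their medians. The 3 Bmp7 regions specific to E10.5 lie above the box and the Bmp4 region below it.

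The same windows were searched on both strands for 15 short motifs of factors that work in limb buds or in accessible chromatin generally. These were GTCTAGAC (SMAD), GGCGCC (also SMAD), TGGGTGGTC (GLI), TGACAG (PKNOX and MEIS), TGATTGAC (PBX), CAATAAA (posterior HOX), TAATTA (homeodomain), GGAATG (TEAD), CAGCTG (an E-box), CATCTG (a second E-box), CTTTGAT (LEF and TCF), CCGGAAG (ETS), TGANTCA (AP-1), ACAATGG (SOX) and GGGGCGG (SP and KLF). A match describes the letters only, and no match says only that these letters are not in this window. None of the motifs contains another, although neighbouring matches may overlap.

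Neither SMAD motif was found in the 15 distal E9.5 or 13 distal E10.5 windows of the 2 genes, against 0.323% and 0.341% of all distal windows for GTCTAGAC and 5.91% and 4.56% for GGCGCC. The latter was found in the start region of Bmp7 at both stages and in the intron 1 region of Bmp4 at E10.5. These were 1 of 3 and 2 of 4 promoter-proximal windows, beside 24.4% and 24.7% of all promoter-proximal windows. The E9.5 region chr14:47004904-47008939 also covers the place of the Bmp4 match, but its window was centred elsewhere and did not hold it. The GLI motif, bound by the transcription factors of hedgehog signalling, was in 1 distal window, that of the Bmp7 intron 3 region 51.7 kb from the start at E9.5, and in 0.453% of all distal E9.5 windows. The E10.5 region that overlaps it had its centre elsewhere, and its window held 0 matches.

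The posterior HOX motif CAATAAA was in 0 of 15 distal E9.5 windows and in 2 of 13 distal E10.5 windows, against 4.67% and 7.32% of all distal windows. Both were E10.5-specific regions, Bmp4 at 177 kb with 2 matches and Bmp7 at the 3' end with 1 match, which lies outside the 200 bp printed above. In the Bmp4 sequence the matches begin at bases 26 and 70. The E-box CAGCTG was in 3 of 15 and 6 of 13 distal windows (26.6% and 23.6% of all distal windows). The Bmp7 region at 14.9 kb held 5 CAGCTG matches at both stages, 1 of which begins at base 184 of the printed sequence. CATCTG, the second E-box, showed no such rise, as 4 distal windows of the 2 genes held it at E9.5 and 1 at E10.5. Its shares of all distal windows were 29.5% and 31.5%. GGAATG was in 5 of 15 and 4 of 13 (19.5% and 19.4%), among them the Bmp4 region at 46.1 kb at both stages. TGACAG was in 5 of 15 and 2 of 13 (25.4% and 23.8%), and in the E9.5-specific region upstream of Bmp7 it stood with 1 match each to the TEAD, homeodomain and ETS motifs.

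The nearest-start rule leaves out regions that lie between Bmp4 or Bmp7 and the next genes but nearer to another start. The neighbours on either side of Bmp4 were Gm15217, with its start 9.41 kb beyond the nearest Bmp4 start on the 3' side, and Cdkn3, which encodes a phosphatase of cyclin-dependent kinases, 370 kb upstream. Those of Bmp7 were Spo11, which encodes the nuclease of meiotic double-strand breaks, 37.4 kb upstream, and Tcfap2c, which encodes the transcription factor AP-2 gamma, 388 kb on the 3' side. Because the Gm15217 start adjoins Bmp4, all 3' regions beyond the gene body fell to Gm15217 or Ddhd1, a phospholipase gene. Counting all regions up to the flanking genes was an addition made after the data were seen. Between Ddhd1 and Cdkn3, 1102 kb apart, there were 17 regions at E9.5 and 26 at E10.5, of which 5 and 12 were stage-specific. Between Tcfap2c and Spo11, 425.6 kb apart, there were 20 and 21, of which 5 and 7 were stage-specific. The whole-list shares to read these counts against are 29.9% and 35.0% for all regions and 40.3% and 49.6% for distal ones.

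Some of the highest scores around Bmp4 were in this group. A region 214.7 kb upstream of Bmp4 had a score of 1793.91 at E10.5 (chr14:47223595-47226416, percentile 94.95) and its partner had 433.58 at E9.5 (percentile 63.24). The region 271.5 kb upstream went the other way, from 839.05 at E9.5 (chr14:47281105-47282505, percentile 76.43) to 167.46 at E10.5 (percentile 35.02). At 328 kb upstream the scores were 243.85 and 795.89 (percentiles 47.89 and 81.7). On the 3' side of Bmp4, E10.5-specific regions stood 370.9 kb (score 456.13) and 564.4 kb (score 428.29) from its start. Around Bmp7, the region 211.7 kb from its start scored 1470.07 in the earlier list (chr2:172553400-172554751) and 752.91 in the later. Its percentiles, 87.56 and 80.63, were closer together than these scores. The region at 200.9 kb scored 251.39 and 599.74 (percentiles 48.82 and 75.75). The one at 278.8 kb scored 177.15 and 691.01 (percentiles 35.93 and 78.75). These regions were assigned to Cdkn3, Ddhd1, Gm15217 or Tcfap2c by distance. Which gene any of them acts on was not measured.

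**Figure D4:**
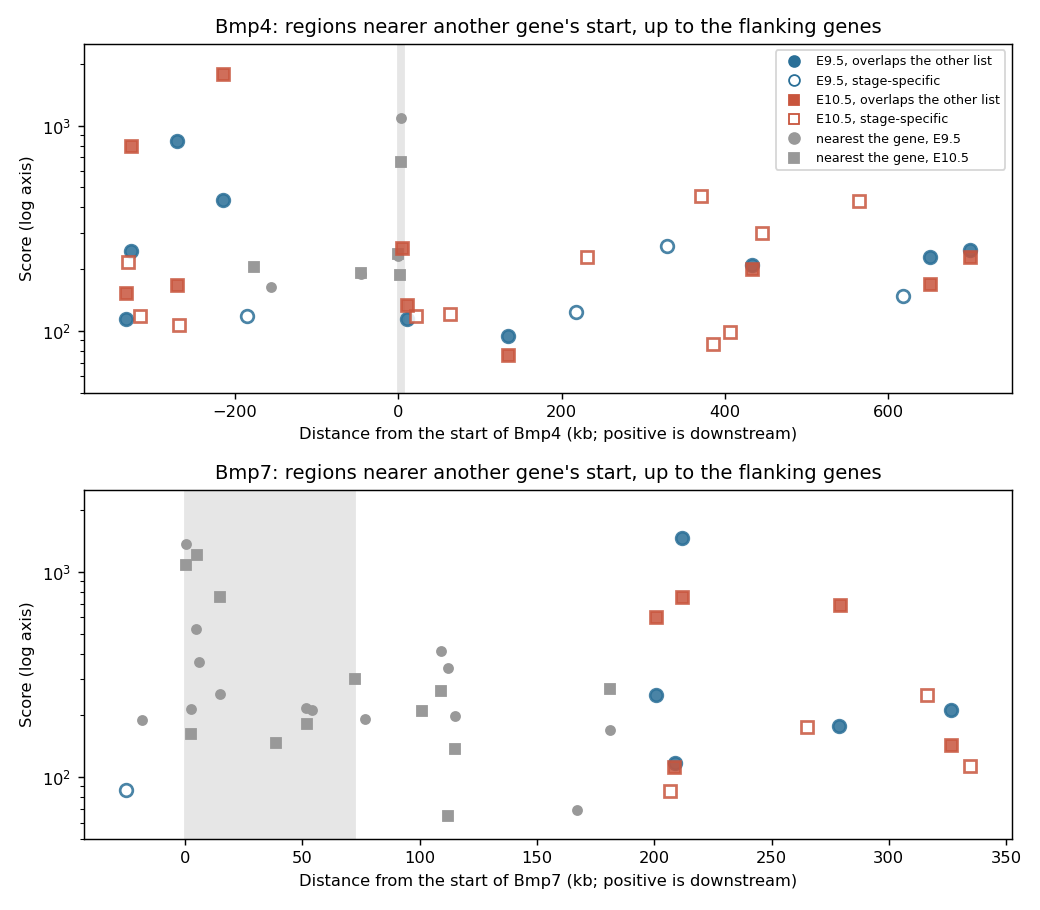
Score (log axis) against distance in kb from the start of Bmp4 (top) and Bmp7 (bottom) for regions nearer to another gene's start but between the flanking genes, at E9.5 (circles) and E10.5 (squares). Filled symbols overlap the other list, open symbols are stage-specific, small grey symbols are the regions nearest Bmp4 or Bmp7 and the grey band is the gene. The highest point around Bmp4 is the E10.5 region 214.7 kb upstream, at 1793.91.

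The other genes of the pathway were taken from a list of 29, chosen with earlier results of these data known. Pooled, 49 of 177 regions nearest these genes were E9.5-specific (27.7%, 95% Wilson interval 21.6 to 34.7) and 74 of 210 were E10.5-specific (35.2%, 29.1 to 41.9), beside 29.9% and 35.0% over the whole lists. Gene by gene the median share was 25% in the earlier list and 0% in the later, where Bmp2, Bmpr1b and Acvr2a held 21, 14 and 12 of the 74 specific regions. Bmp4 with 25% and 20% and Bmp7 with 28.6% and 25% had similar shares at both stages. Among the other ligands, Bmp2 had 14 regions at E9.5 and 30 at E10.5, of which 21 were E10.5-specific, and Bmp5 had 4 and 8, of which 5 were E10.5-specific. Bmp6 had 2 and 2 and Gdf5 had 1 and 1, with 0 stage-specific. Gdf6 had 8 and 10, of which 3 were E10.5-specific.

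Of the regions nearest the receptor genes, 9 of 30 were E9.5-specific and 27 of 48 E10.5-specific, most of the latter at the type I receptor gene Bmpr1b (14 of 19) and the activin type II receptor gene Acvr2a (12 of 22). The genes of the signal transducers Smad1, Smad4, Smad5 and Smad9 together had 4 of 12 and 3 of 11. Those of the inhibitory Smad6 and Smad7 had 10 of 34 and 6 of 32. The secreted antagonists had 11 of 38 and 9 of 38, among them Grem1 with 1 shared region in each list and Bmper with 6 of 16 and 7 of 17. As at Bmp4 and Bmp7, regions that lie nearer to another gene's start are left out of these counts. For the direct targets Id1, Id2, Id3, Msx1 and Msx2 the counts were 9 of 34 and 0 of 30. Beside these counts stand the stage-specific shares of the whole lists, 29.9% and 35.0% for all regions and 40.3% and 49.6% for distal ones. Regions of a gene share their chromosome neighbourhood, so these counts describe the lists and carry no test. By number of regions Bmp7 stood among the genes of the pathway with most at E9.5, level with Bmp2 and Acvr2a at 14 and below Smad7 with 22 and Bmper with 16. At E10.5 its 12 regions were fewer than those of Bmp2 (30), Smad7 (25), Acvr2a (22), Bmpr1b (19) and Bmper (17).

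**Figure D5:**
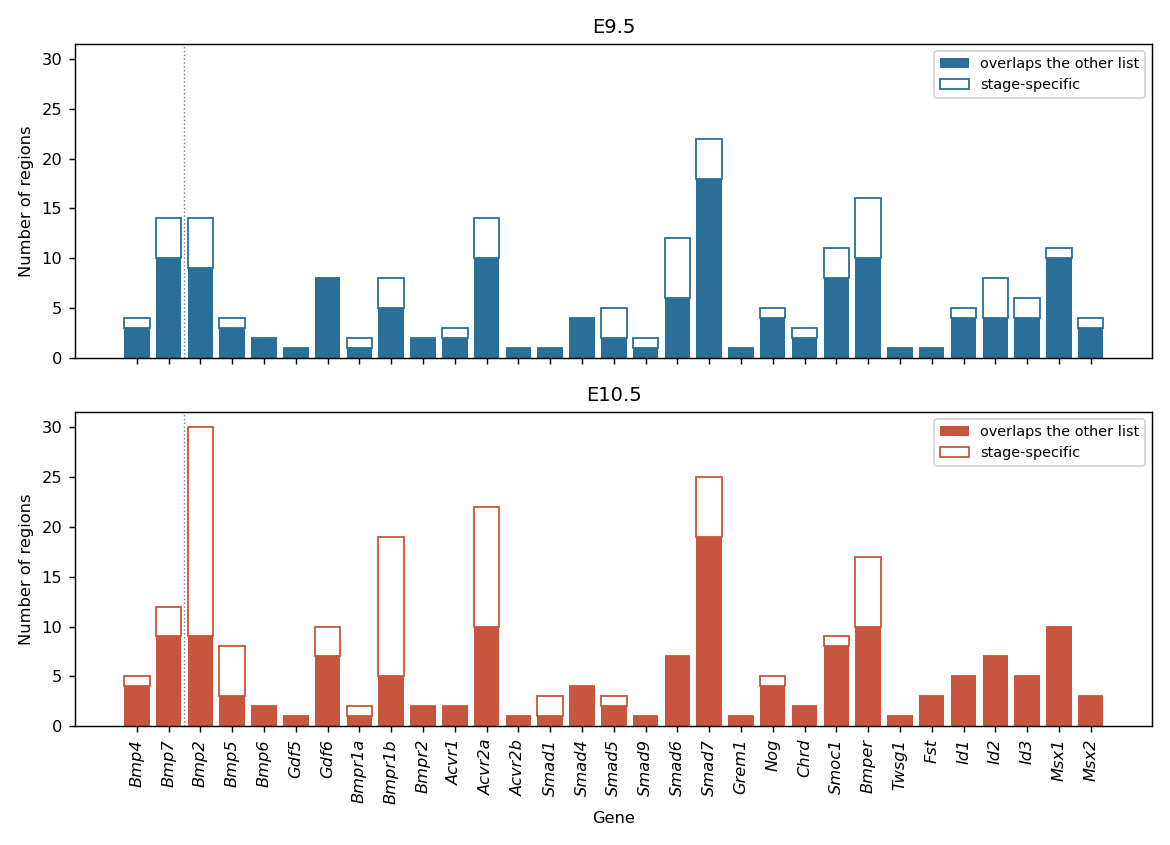
Number of regions nearest each gene at E9.5 (top) and E10.5 (bottom), for Bmp4 and Bmp7 (left of the dotted line) and the 29 other pathway genes. Filled parts overlap the other list and open parts are stage-specific. At E10.5 Bmp2 reaches 30 regions with 21 stage-specific, while Bmp7 has 12 with 3.

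The genes with the most similar counts were found by summing the absolute differences in 4 counts per gene, the shared and stage-specific regions of each list. Slco5a1, Unc13a and Spen had the same counts as Bmp4 (3 shared and 1 specific in the earlier list, 4 and 1 in the later), the only 3 symbols with a sum of 0. Ext2 and Fez1 came within a sum of 1 of Bmp7. Klf3 had a sum of 2 and was taken from several symbols tied at it by the smaller difference in covered bp, with 9 symbols in all at a sum of 2 or less. The likeness rests on 2 lists and small counts.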

How the data were processed

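ATAC-seq was made from 2 biological replicates each of E9.5 and E10.5 wild-type forelimb buds. The authors aligned reads to mm9 with Bowtie 1.1.0, called regions per replicate with MACS 1.4 without a control library, and combined replicates with MSPC. The deposited files hold 1 list of regions per stage with the authors' score, the negative log10 of the lowest replicate p-value multiplied by 10. Depth per sample is unknown, and intervals cover counting error only.

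Coordinates are 1-based. Regions were assigned to the nearest of 70021 protein-coding starts (GENCODE vM1 on NCBIM37, the mm9 assembly; 0 regions passed a chromosome end). Overlap of 1 bp made a region shared. Percentiles are mid-ranks within a list. Python 3.11.15 with numpy 2.4.6 and scipy 1.17.1 was used, and the assignment and overlap functions were tested on simulated data. The members and gene lists were chosen with earlier results of these data known. Named regions are all promoter-proximal and stage-specific ones and the 3 highest-scoring distal ones per gene and list, and named genes are the members, their neighbours, the 29 pathway genes and the 3 most alike in counts, with ties broken by covered bp. Ddhd1, the shared distal Bmp7 regions at 51.7, 112, 115 and 181 kb and the high-scoring regions nearer other starts were chosen after their values were seen. Alternatives were edge distance, starts of all gene types, score limits, overlap rules and promoter distances. No test was run, since each stage has 1 list.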

Additional observations from a re-analysis of the deposited data

How the results depend on the processing

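No paired analysis was possible because the replicates of a stage had been combined into 1 list, and for the same reason leaving out each replicate was not run. Of 96 values recomputed under alternatives, 51 stayed within 1.5 times the value reported (or, for a share, within its interval) and 45 did not.

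Pairs of values are for E9.5, then E10.5. The score limit of 100, the 500-bp allowance and the centre rule moved none of the values computed under them by that much. With starts of all gene types, Bmp4 kept 1 and 2 regions (1043 and 2106 bp, 0 and 0 stage-specific) and Bmp7 kept 6 and 4 (8858 and 8290 bp, 1 and 0 stage-specific), since nearby non-coding starts take the rest, and the E10.5-specific share of the pathway list was 26.9%. With a reciprocal overlap of 50%, stage-specific regions numbered 2 and 3 at Bmp4, 7 and 5 at Bmp7, and the E10.5-specific share of the pathway list was 44.8%. In the higher-scoring 50% of each list, Bmp4 had 1 and 1 regions and Bmp7 5 and 6, of which 0 and 0 at Bmp4, and 0 and 1 at Bmp7, were stage-specific against the whole other list. Within 1 kb of a start, Bmp7 had 1 region at both stages and Bmp4 1 at E10.5. Within 5 kb, or measured from the edge, Bmp4 had 2 promoter-proximal regions at E9.5.

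Without the Gm15217 start (chosen after seeing the data), Bmp4 had 8 and 11 regions, 3 and 4 stage-specific, and 11949 bp at E10.5. Over all regions between the flanking genes (likewise), Bmp4 had 17 and 26 regions, 5 and 12 stage-specific, covering 19877 and 28276 bp, and Bmp7 had 21 at E10.5, 7 stage-specific, covering 25152 bp. Statements on the number of Bmp4 and Bmp7 regions, and on the place of Bmp7 among all genes, therefore hold for the rule of the nearest protein-coding start only.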
